A study of Homo sapiens with 4 samples.

Results

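The miR-506 to miR-514 family was followed through small RNA libraries of RD cells, a human rhabdomyosarcoma line of the embryonal type with traits of developing muscle. The members were 10 mature miRNAs chosen by name, with their levels in these 4 libraries already known, so those levels are a description and support nothing beyond it. All 10 were among the 2656 miRNAs of the deposited count table. They were hsa-miR-506-3p, hsa-miR-508-3p, hsa-miR-508-5p, hsa-miR-509-3p, hsa-miR-509-5p, hsa-miR-509-3-5p, hsa-miR-510-5p, hsa-miR-513a-5p, hsa-miR-513c-5p and hsa-miR-514a-3p, written without the species prefix from here on. A further 10 rows of the table belong to the same hairpin family and are given as a second list.

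The cells were untreated. An EVEN library and an ODD library came from native pull-downs with 2 different sets of biotinylated antisense probes against exon 2 of HIPK3, the exon that makes up the circular RNA circHIPK3. A LacZ library came from a control pull-down with probes against a bacterial mRNA, and the fourth library is marked only as input. There was 1 library and 1 biological replicate per group, so no difference below has a replicate check, and every interval covers counting error only. Linear HIPK3 mRNA carries exon 2 as well. No probe sequence was used here.

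The family is a cluster of short hairpins on the X chromosome that expanded and diverged quickly in primates. It is known for expression in testis and for high levels in melanoma. Each hairpin is cut into a 5p and a 3p arm, and an arm loaded into an Argonaute protein finds its mRNA targets mainly through its seed, bases 2 to 8.

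The mature arms lie on the minus strand of chromosome X between 147189753 and 147284675 of GRCh38, a span of 94.9 kb that holds 12 hairpin genes giving rise to the members. In GENCODE release 29 the only annotated gene there other than miRNAs is the lincRNA AL589669.1, on the opposite strand from 147181064 to 147271894. The MIR510 hairpin and the 3 MIR514A hairpins lie beyond its end. The sequences of all 10 members were found in RefSeq (GRCh38.p14). They are shown 5′ to 3′ with the seed in capitals:
miR-509-3p: uGAUUGGUacgucuguggguag
miR-509-3-5p: uACUGCAGacguggcaaucaug
miR-509-5p: uACUGCAGacaguggcaauca
miR-510-5p: uACUCAGGagaguggcaaucac
miR-508-3p: uGAUUGUAgccuuuuggaguaga
miR-508-5p: uACUCCAGagggcgucacucaug
miR-513c-5p: uUCUCAAGgaggugucguuuau
miR-514a-3p: aUUGACACuucugugaguaga
miR-506-3p: uAAGGCACccuucugaguaga
miR-513a-5p: uUCACAGGgaggugucau

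Among the members, miR-509-5p and miR-509-3-5p share a seed. They differ by an edit distance of 3 over 21 and 22 bases, and how reads matching more than 1 miRNA were assigned is not known, so the split between these rows is uncertain. miR-513c-5p shares its seed with miR-514b-5p, and miR-514a-3p shares its seed with miR-514b-3p, both outside the 10 members. miR-509-3p has the same sequence in 3 hairpins. Of these, only MIR509-3 carries miR-509-3-5p on its other arm, shown here with both arms in capitals (chromosome X, 147259652 to 147259726, minus strand):
MIR509-3: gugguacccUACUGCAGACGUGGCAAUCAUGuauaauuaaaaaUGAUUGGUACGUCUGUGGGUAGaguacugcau

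The libraries held 98950 miRNA reads for EVEN, 426450 for ODD, 425395 for LacZ and 2987858 for the input. Levels are given as CPM, read counts scaled to a common total of miRNA reads per library. A count of 0 allows a level up to that of 3 reads, which is 30.3 CPM in EVEN, 7.03 in ODD, 7.05 in LacZ and 1.00 in the input, so EVEN is the least informative about absence. A ratio of CPM compares shares of a library, not amounts of RNA, and in a bulk library fewer cells with a miRNA and less of it per cell cannot be told apart. The skeletal muscle miRNAs miR-1-3p, miR-133a-3p, miR-133b, miR-206 and miR-486-5p took 11.0% of EVEN, 3.71% of ODD, 7.10% of LacZ and 6.32% of input reads, with none of the 5 at 0. The melanocyte miRNAs miR-211-5p and miR-204-5p had 0 reads in every pull-down and 3 reads together in the input, and 6 germ line and pluripotency miRNAs together had 0 reads in EVEN and ODD, 1 in LacZ and 8 in the input. The 5 epithelial miRNAs summed to 27 reads in EVEN, 365 in ODD, 264 in LacZ and 495 in the input, with 2 of the 5 at 0 in EVEN and 3 at 0 in ODD. Among them miR-205-5p had 20 reads in EVEN, 355 in ODD, 208 in LacZ and 4 in the input, whereas miR-141-3p had 4 in EVEN, 0 in ODD, 17 in LacZ and 196 in the input. miR-200a-3p and miR-200b-3p had 0 reads in EVEN and ODD, 21 and 2 in LacZ, and 168 and 37 in the input. The part of these miRNAs in the results below was not tested. The 10 miRNAs of the miR-888 to miR-892 group, also on Xq27, had 0 reads in every pull-down and 1 read in the input.

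In the input the family was present and uneven. Of the 10 members, 9 had at least 1 read and 7 had at least 20, and together they took 0.412% of reads (95% exact binomial interval 0.405 to 0.419). miR-514a-3p, reported to act on NF1 in melanoma, led with 2387 CPM and 57.9% of the family's reads. miR-508-3p followed at 884 CPM, then miR-509-3p at 368, which regulates CFTR in airway cells, and miR-513c-5p at 247. miR-510-5p, reported to target PRDX1 in breast cancer, had 108 CPM, miR-508-5p 75.3 and miR-509-3-5p 44.8. The counting intervals of these 7 neighbours in the order did not overlap. miR-509-5p had 5.69 CPM from 17 reads and miR-513a-5p, reported to repress the immune checkpoint ligand CD274, had 1 read. miR-506-3p, the member for which the family is named and a repressor of the epithelial to mesenchymal transition factor SNAI2, had 0 reads in all 4 libraries.

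The make-up of the family differed between the libraries more than its sum did. The members took 1.79% of EVEN reads (1.71 to 1.88), 0.490% of ODD (0.469 to 0.512), 1.37% of LacZ (1.34 to 1.41) and 0.412% of the input. In EVEN and LacZ, miR-509-3p alone made up 91.4% and 73.6% of the family's reads, against 8.93% in the input. In ODD, miR-509-3-5p made up 46.9% and miR-510-5p 32.6%, together 79.6% of the family's reads, against 0.113% in EVEN, 0.291% in LacZ and 3.71% in the input. Without these 3 miRNAs the other members took 0.153% of EVEN, 0.0551% of ODD, 0.358% of LacZ and 0.360% of input reads. The summed LacZ and input shares of the rest thus lay within each other's counting intervals (0.341 to 0.377 and 0.353 to 0.367). Single members differed. LacZ was above the input for miR-508-3p (1.31-fold, 1.19 to 1.45) and miR-508-5p (2.31-fold, 1.75 to 3.02). It was below the input for miR-514a-3p (1.16-fold, 1.08 to 1.24) and miR-513c-5p (1.35-fold, 1.06 to 1.72).

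**Figure D1:**
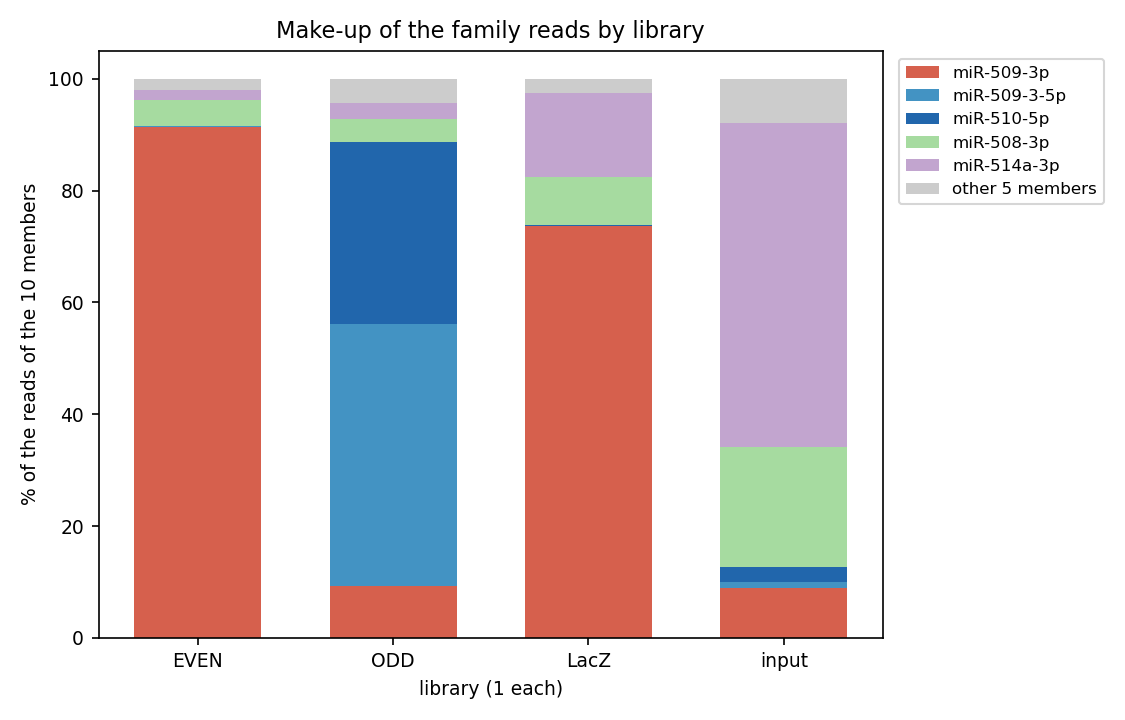
Share of the reads of the 10 members (vertical axis, %) taken by each named member in the EVEN, ODD, LacZ and input libraries, 1 library per bar, with the other 5 members in grey. miR-509-3p fills 91.4% of the EVEN bar and 73.6% of the LacZ bar, while miR-509-3-5p and miR-510-5p fill 79.6% of the ODD bar.

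miR-509-3p was abundant in EVEN and LacZ and low in ODD. It had 16402 CPM in EVEN (1623 reads), 450 in ODD (192 reads), 10101 in LacZ (4297 reads) and 368 in the input (1099 reads). EVEN and LacZ were high and close to each other, while ODD and the input were low. Against the input it was 44.6-fold higher in EVEN (95% exact counting interval 41.3 to 48.2), 1.22-fold higher in ODD (1.04 to 1.43) and 27.5-fold higher in LacZ (25.7 to 29.4). It was the member highest relative to the input with the control probes, and ranked 17 from the top of 475 miRNAs in LacZ against the input. EVEN exceeded LacZ by 1.62-fold (1.53 to 1.72), under the 2-fold threshold used for a call, although its log2 ratio passed that threshold with DESeq2 size factors (1.11). The log2 ratio also passed it when every miRNA among the 10 most abundant of any library was left out of all totals (1.13). ODD was 22.4-fold below LacZ (19.4 to 26.1). Between the probe sets, EVEN was 36.4-fold above ODD (31.4 to 42.5), rank 5 from the top of 203 miRNAs.

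miR-509-3-5p, made from the other arm of the MIR509-3 hairpin, was instead high in ODD and low in EVEN and LacZ. It had 20.2 CPM in EVEN (2 reads), 2300 in ODD (981 reads), 11.8 in LacZ (5 reads) and 44.8 in the input (134 reads). ODD stood alone above the other 3 libraries, whose highest counting bound was 73.0 CPM, in EVEN. ODD was 196-fold above LacZ (83.6 to 604), the highest ratio of 300 miRNAs, and 51.3-fold above the input (42.8 to 61.9). EVEN was 114-fold below ODD (31.4 to 941). EVEN held too few reads to be set against LacZ, with a ratio of 1.72 and an interval of 0.164 to 10.5, and LacZ was 3.82-fold below the input (1.60 to 11.9).

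miR-510-5p behaved like miR-509-3-5p although it comes from another hairpin. It had 0 reads in EVEN, 1599 CPM in ODD (682 reads), 28.2 in LacZ (12 reads) and 108 in the input (323 reads). ODD was again the one high library. ODD was 56.7-fold above LacZ (32.2 to 110.3), rank 4 of 300, and 14.8-fold above the input (12.9 to 16.9). With 0 reads EVEN was at least 52.7-fold below ODD and at least 3.57-fold below the input, and its floor of 30.3 CPM lies above the LacZ level, so EVEN against LacZ was not detectable at this depth. miR-509-5p, the 5p arm of the other 2 MIR509 hairpins, had 0 reads in EVEN, 18 in ODD, 0 in LacZ and 17 in the input. It was under the minimum of 20 reads for a call, at 7.42-fold above the input in ODD (3.61 to 15.3) and at least 5.99-fold above LacZ.

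**Figure D2:**
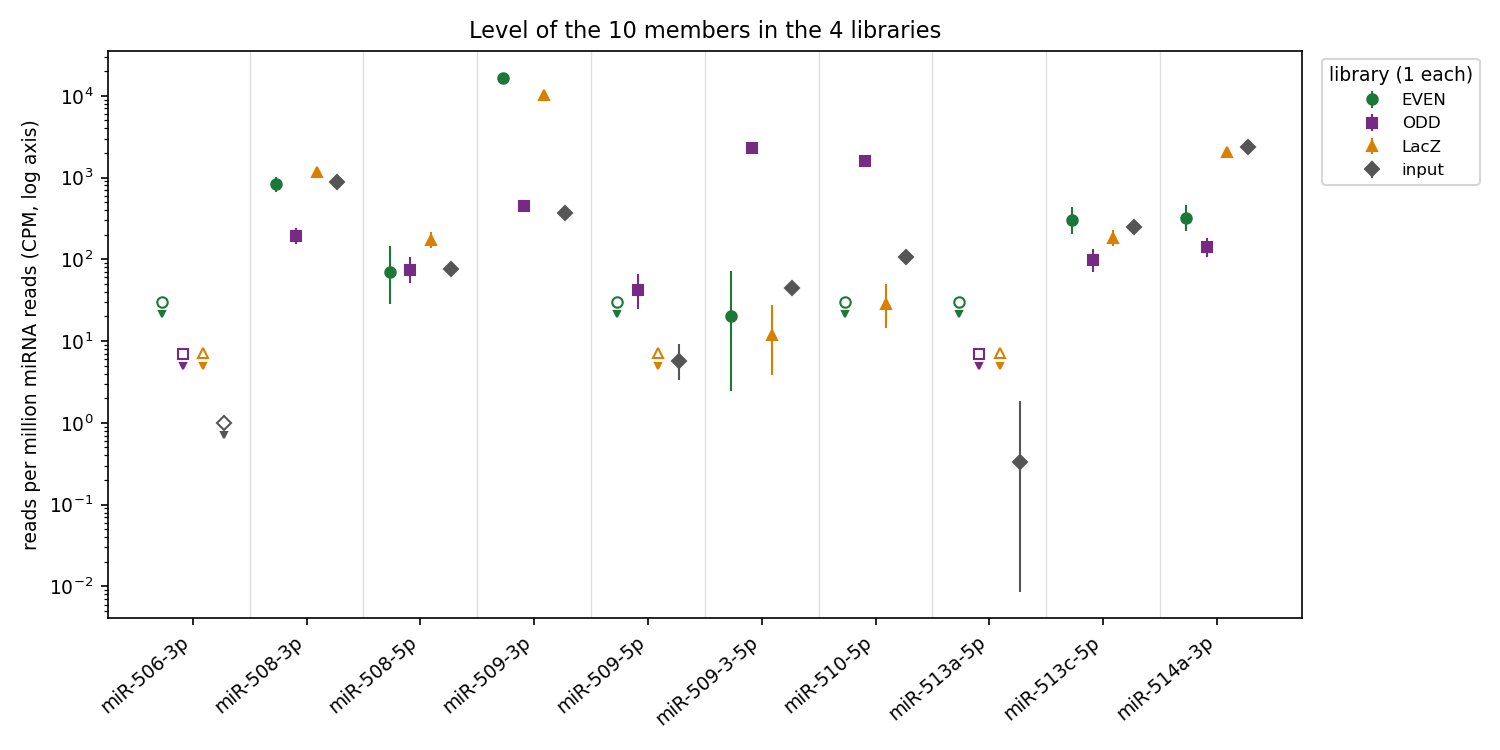
Level of each member (vertical axis, CPM on a log scale) in the EVEN, ODD, LacZ and input libraries, with 95% exact binomial intervals from counting; hollow markers with a small triangle below stand for 0 reads, drawn at the level of 3 reads. miR-509-3p is at 16402 CPM in EVEN and 10101 in LacZ, against 450 in ODD, while miR-509-3-5p and miR-510-5p reach 2300 and 1599 CPM in ODD alone.

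The balance of the arms of a hairpin does not depend on how the libraries are scaled. Of the reads of miR-509-3p and miR-509-3-5p together, the 3p arm took 99.9% in EVEN (99.6 to 99.99), 16.4% in ODD (14.3 to 18.6), 99.9% in LacZ (99.7 to 99.96) and 89.1% in the input (87.3 to 90.8). EVEN and LacZ had the same balance within counting error, and ODD alone held more 5p than 3p reads. With miR-509-5p counted among the 5p reads the ODD share was 16.1%. Part of the 3p reads can come from MIR509-1 and MIR509-2, which do not encode miR-509-3-5p.

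Other hairpins showed smaller shifts. For miR-508 the 3p arm took 92.1% in EVEN (84.5 to 96.8), 72.2% in ODD (63.0 to 80.1), 87.0% in LacZ (83.9 to 89.6) and 92.2% in the input (91.1 to 93.1), so ODD was lowest here too. For miR-514a the 3p share was 94.1% in EVEN (80.3 to 99.3), 83.3% in ODD (72.7 to 91.1), 91.9% in LacZ (90.04 to 93.6) and 78.3% in the input (77.4 to 79.1), with EVEN and ODD overlapping. For miR-510 the 5p arm led in every library that had reads, at 99.7% in ODD, 92.3% in LacZ from 13 reads in all, and 95.8% in the input.

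**Figure D3:**
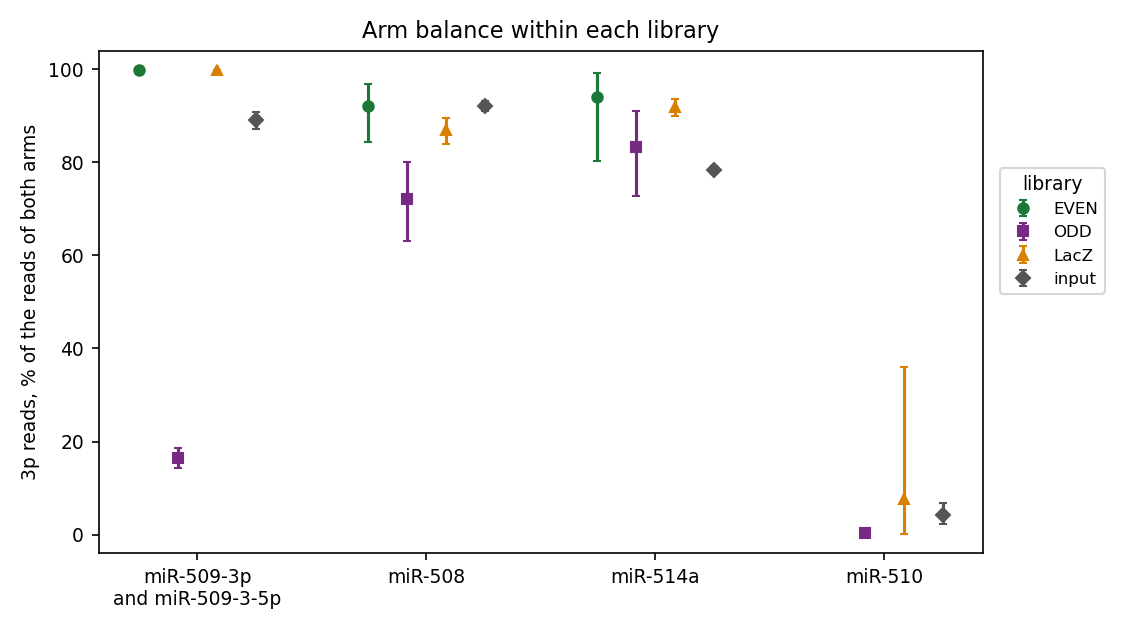
Share of 3p reads among the reads of both arms (vertical axis, %) for 4 hairpin groups in the EVEN, ODD, LacZ and input libraries, with 95% exact binomial intervals; miR-510 had no reads in EVEN. For miR-509-3p with miR-509-3-5p the ODD point is at 16.4%, and the other 3 libraries lie between 89.1% and 99.9%.

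By CPM, miR-514a-3p, miR-508-3p and miR-513c-5p were lower in ODD than in EVEN, and miR-508-5p was about level. miR-514a-3p had 323 CPM in EVEN (32 reads), 141 in ODD (60 reads), 2066 in LacZ (879 reads) and 2387 in the input (7132 reads). LacZ and the input were high and both circHIPK3 pull-downs low, at 6.39-fold (4.49 to 9.40) and 14.7-fold (11.3 to 19.4) below LacZ for EVEN and ODD. miR-508-3p had 829 CPM in EVEN (82 reads), 195 in ODD (83 reads), 1161 in LacZ (494 reads) and 884 in the input (2642 reads), with ODD the single low library at 5.97-fold below LacZ (4.72 to 7.62). miR-508-5p, reported to act on ABCB1 in drug-resistant gastric cancer, had 70.7 CPM in EVEN (7 reads), 75.0 in ODD (32 reads), 174 in LacZ (74 reads) and 75.3 in the input (225 reads). Here LacZ was the high library, the intervals of the other 3 overlapped, and that of EVEN (28.4 to 145.8 CPM) also reached that of LacZ (136.6 to 218.4). As a ratio, EVEN was 2.46-fold below LacZ (1.14 to 6.33), called lower on 7 EVEN reads. Relative to the median of all miRNAs that ratio lay at -0.15 on the log2 scale. miR-513c-5p had 303 CPM in EVEN (30 reads), 98.5 in ODD (42 reads), 183 in LacZ (78 reads) and 247 in the input (737 reads), so it was within 2-fold of LacZ with both probe sets, 1.65-fold above it in EVEN (1.05 to 2.55) and 1.86-fold below it in ODD (1.26 to 2.78).

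Calls required 20 or more reads in one of the compared libraries and a change of 2-fold or more on a log2 scale with 0.5 added to each count. Of the 10 members 5 reached the minimum in EVEN against LacZ, with 0 called higher and 2 lower, beside 9.69% of all 289 miRNAs called higher and 51.2% called lower. In ODD against LacZ 7 reached it, with 2 higher and 4 lower, beside 13.0% of 300 miRNAs higher and 70.3% lower. The median log2 ratio of the members was -0.48 over 5 in EVEN against LacZ, beside -1.06 over all miRNAs. In ODD against LacZ it was -1.20 over 7, beside -1.79. The 7 include miR-509-3-5p and miR-510-5p, which had 5 and 12 LacZ reads and reached the minimum through ODD alone. Among the 5 members that entered both comparisons the middle ODD value was -2.57 (miR-508-3p), below that of all miRNAs. The place of the members beside all miRNAs thus depends on this filter. Most miRNAs were below LacZ in both pull-downs, so a lower call of a member is read against that shift. With TMM factors, a scaling that assumes most miRNAs do not differ, the split over all miRNAs was 66 higher and 103 lower in ODD against LacZ, beside 39 and 211, and with size factors it was 43 higher and 107 lower in EVEN against LacZ, beside 28 and 148. Relative to the median of all miRNAs in ODD against LacZ, miR-509-3-5p stood at 9.27, miR-510-5p at 7.56, miR-509-3p at -2.69 and miR-514a-3p at -2.07 on the log2 scale. miR-508-5p (0.59), miR-508-3p (-0.78) and miR-513c-5p (0.90) lay within 2-fold of it, and the log2 ratios of miR-508-5p and miR-513c-5p against LacZ turned positive with TMM factors (0.088 and 0.40).

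**Figure D4:**
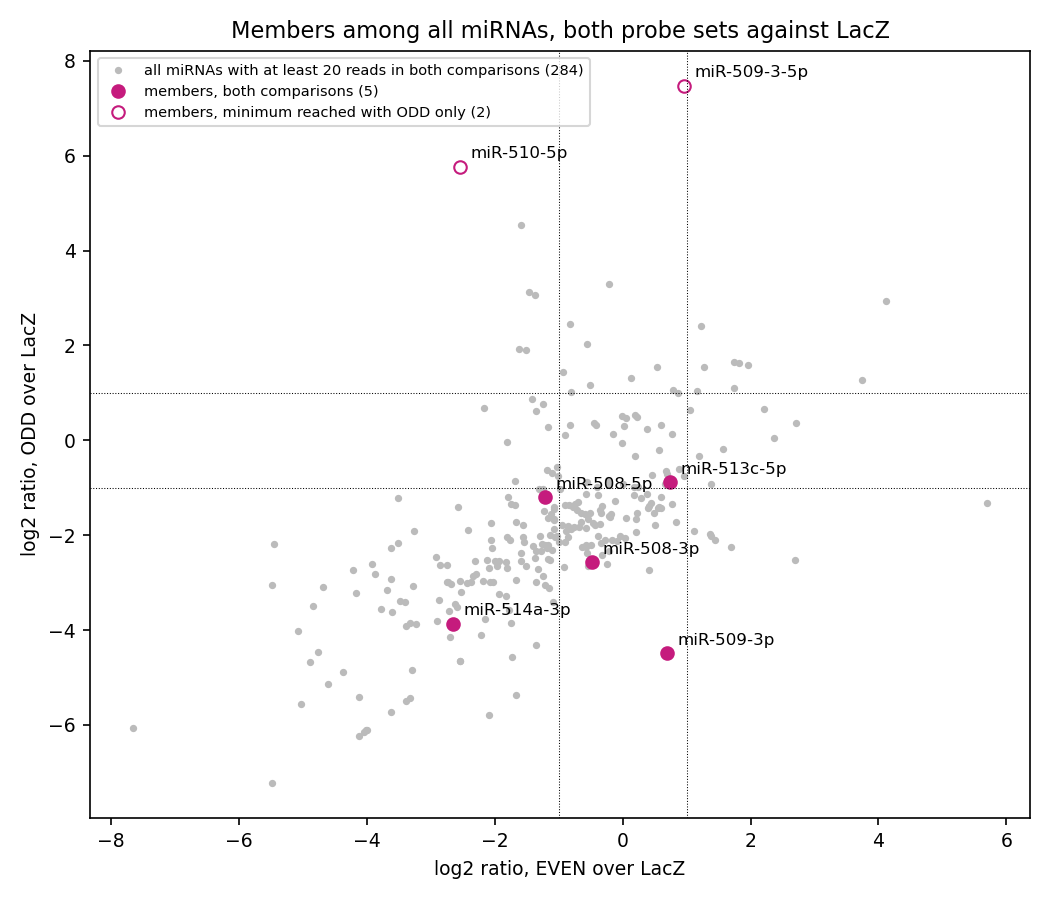
Log2 ratio of EVEN over LacZ (horizontal axis) and of ODD over LacZ (vertical axis) for 284 miRNAs with enough reads in both comparisons, which share the LacZ library, with dotted lines at 2-fold. Members are in magenta, hollow where only ODD against LacZ reached 20 reads; miR-509-3-5p (7.48) and miR-510-5p (5.77) lie at the top, and miR-509-3p lies low on the ODD axis (-4.48) and above 0 on the EVEN axis (0.70).

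Between EVEN and ODD, whose probes lie on one exon, 7 members reached the minimum and 4 were called higher in EVEN and 2 lower, beside 37.9% of 203 miRNAs higher and 18.2% lower. The higher ones were miR-509-3p, miR-508-3p (4.26-fold, 3.10 to 5.85), miR-513c-5p (3.08-fold, 1.86 to 5.04) and miR-514a-3p (2.30-fold, 1.45 to 3.59), and the lower ones miR-509-3-5p and miR-510-5p. The members had a median log2 ratio of 1.21, beside 0.64 over all miRNAs. Of the members, miR-508-5p, miR-509-3-5p and miR-510-5p reached the minimum here through ODD alone. With TMM factors the median of all miRNAs was -0.38, with 20 miRNAs higher and 64 lower beside 77 and 37, and miR-513c-5p and miR-514a-3p were then under 2-fold, while miR-508-5p was called lower in EVEN at -1.03, beside -0.01 without that scaling.

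Against the input, EVEN had 1 member called higher (miR-509-3p) and 2 lower (miR-510-5p, miR-514a-3p) of 7, beside 18.3% and 52.2% of 464 miRNAs. ODD had 2 higher (miR-509-3-5p, miR-510-5p) and 3 lower (miR-508-3p, miR-513c-5p, miR-514a-3p) of 7, beside 13.0% and 68.6% of 468 miRNAs. LacZ had 2 higher (miR-508-5p and miR-509-3p) and 2 lower (miR-509-3-5p, miR-510-5p) of 7, beside 18.1% and 34.3% of 475 miRNAs. miR-509-3-5p and miR-510-5p, called higher in ODD, were thus called lower in LacZ. These 3 comparisons share the input library. With the miRNAs among the 10 most abundant of any library left out of the totals, the splits over all miRNAs changed. They were 123 higher and 176 lower in EVEN, 107 and 238 in ODD, and 108 and 127 in LacZ, beside 85 and 242, 61 and 321, and 86 and 163.

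The 10 other rows of the family had at least 1 read each in the input and few in the pull-downs, with 4 reads in EVEN, 31 in ODD, 171 in LacZ and 3566 in the input in all. miR-514a-5p was the most abundant, with 2 reads in EVEN, 12 in ODD, 77 in LacZ and 1977 in the input. miR-514b-5p had 1 read in EVEN, 5 in ODD, 22 in LacZ and 683 in the input. miR-507 had 1 read in EVEN, 4 in ODD, 31 in LacZ and 357 in the input. These 3 were the rows that reached the minimum against LacZ, and all 3 were called lower with both probe sets, beside 51.2% of all miRNAs called lower in EVEN and 70.3% in ODD. In ODD they lay at -0.84 for miR-514a-5p, -0.24 for miR-514b-5p and -1.02 for miR-507 on the log2 scale relative to the median of all miRNAs. The value of miR-514b-5p in EVEN, 5.12-fold lower, had an interval that includes 1 (0.827 to 211). Against the input 7 rows reached the minimum. All 7 were called lower in EVEN, beside 52.2% of all miRNAs, all 7 in ODD, beside 68.6%, and 4 in LacZ, beside 34.3%. None of the 7 was called higher, beside 18.3% of all miRNAs called higher in EVEN, 13.0% in ODD and 18.1% in LacZ. In EVEN 4 of these 7 had 0 reads, so those calls rest on the added 0.5, and for miR-513c-3p and miR-514b-3p a count of 0 at this depth allows no fold. miR-513c-3p also had 0 reads in ODD and in LacZ, so its lower calls there rest on the added 0.5 too. The bound was at least 1.95-fold below the input in ODD and in LacZ, under the 2-fold threshold. No other row of the family reached 20 reads in EVEN or ODD.

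A stretch of 10 bases was common to the 2 members called higher in ODD and to miR-509-5p, which was under the minimum for a call, and was found after their values were seen. miR-509-5p, miR-509-3-5p and miR-510-5p hold GUGGCAAUCA, in capitals below, and they were the only 3 of 2367 listed miRNAs with a RefSeq sequence to hold it (0.127%). The 5p arms of related hairpins, miR-514a-5p and miR-514b-5p, do not hold it. They had 12 and 5 reads in ODD, and 2 and 1 in EVEN. In ODD against LacZ they lay at -0.84 and -0.24 on the log2 scale relative to the median of all miRNAs. The part of the stretch in any of these values was not tested:
miR-509-3-5p: uacugcagacGUGGCAAUCAug
miR-509-5p: uacugcagacaGUGGCAAUCA
miR-510-5p: uacucaggagaGUGGCAAUCAc
miR-514a-5p: uacucuggagagugacaaucaug
miR-514b-5p: uucucaagagggaggcaaucau

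GUGGCAAUCA is not present in HIPK3 exon 2 on the sense strand. The bases ACUGCAG, the seed of miR-509-5p and miR-509-3-5p, are present there, and 16 of the 2367 miRNAs hold them (0.676%). Of the 16, 3 had any read in a pull-down, miR-509-5p, miR-509-3-5p and miR-17-3p of the MIR17HG cluster on chromosome 13 (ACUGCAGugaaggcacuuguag). miR-17-3p had 16 reads in EVEN, 4984 in ODD, 213 in LacZ and 2794 in the input. miR-510-5p, rank 4 of 300 in ODD against LacZ, does not hold ACUGCAG. A run of 7 bases in common with the exon is also the median of the longest runs over all miRNAs. The search for ACUGCAG too followed from the values, and a shared run of letters is a description, not a binding site.

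The exon itself was searched for seed sites of the members. Exon 2 of HIPK3 lies on the plus strand of chromosome 11 at 33286413 to 33287511 (GRCh38) and is 1099 bases long. An exact complement of bases 2 to 8 was present for 2 of the 10 members, miR-506-3p and miR-508-3p, beside 7.39% of the 2367 miRNAs with a sequence. With bases 2 to 7 it was present for 3 of 10, miR-513c-5p being the third, beside 25.2% of all. The sites are in capitals, miR-506-3p at chr11:33286467-33286473 and miR-508-3p at chr11:33287493-33287499:
miR-506-3p site: caaactcagtcaaGTGCCTTttg
miR-508-3p site: tgttcaacatatcTACAATCtcg

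miR-506-3p had no reads, and miR-508-3p had CPM values in EVEN and ODD below those in LacZ. Its log2 ratio to LacZ was -0.48 in EVEN, not called, and -2.57 in ODD, called lower. Relative to the median of all miRNAs these lay at 0.58 and -0.78. The part of the site in these values was not tested. miR-509-3p, miR-509-3-5p and miR-510-5p had no complement of bases 2 to 8 or 2 to 7 in exon 2. The longest run of letters a member had in common with exon 2 was 6 to 8 bases on the sense strand and 6 to 8 on its complement, beside medians of 7.0 and 7.0 over all miRNAs.

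In ODD against LacZ the log2 ratios of the 7 members with enough reads ran from -4.48 to 7.48. Those of 14 arms of the X-linked miR-188 to miR-660 cluster ran from -3.05 to -1.29. For 9 arms of the X-linked miR-424 to miR-542 cluster they ran from -3.61 to 3.12. The member values of 7.48 and 5.77 belong to miR-509-3-5p and miR-510-5p. With 5 and 12 LacZ reads, these reached the minimum through ODD alone, where they are high. The next highest member was miR-513c-5p at -0.89, below the top of the miR-424 to miR-542 range. The members were chosen with their levels known, and the difference in spread was not tested.

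Over the ratios of EVEN, ODD and LacZ to the input, the nearest miRNAs to the 3 members with most reads were found among 482 others by Euclidean distance in log2 units. miR-514a-3p was nearest to miR-1277-5p (0.49), miR-30e-5p (0.55) and miR-3613-5p (0.61), and miR-508-3p to miR-625-3p (0.32), miR-127-3p (0.37) and miR-93-5p (0.45). For miR-509-3p the nearest were miR-6789-3p (2.31), miR-1343-3p (2.57) and miR-483-5p (3.21), so no measured miRNA lay close to it. Of these only miR-483-5p had high counts, with 4278 reads in EVEN, 6371 in ODD, 8043 in LacZ and 6600 in the input. The distances rest on 4 libraries that share the input, and small counts add noise to them.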

How the data were processed

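Small RNA was counted in 4 libraries of RD cells, 1 per group by title. The labels' protocols name a QIAseq miRNA kit and single-end NovaSeq sequencing. Raw read counts for each mature miRNA were deposited, as were CPM values, and the deposited CPM equal those counts scaled by the library total. The submitters' processing notes name GRCh38. No source used here gives the trimming, aligner, miRNA annotation, multi-mapping, strand or use of molecular identifiers. If identifiers were not collapsed, intervals are too narrow.

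Ratios are of shares of miRNA reads, with 95% exact conditional Clopper-Pearson intervals. Calls needed 20 reads in at least 1 library and 2-fold on log2((count + 0.5) / total). With 0 reads, bounds use 3 counts. The members, lists and searches were chosen with earlier results of these data known. Beyond members, the text names the 3 nearest miRNAs to each of the 3 members with most reads, and lists; other names are marked as chosen later. Exon 2 was read from GENCODE release 29 transcripts, since no genome was used. No test across replicates exists. The calculations were tested on simulated data. Tools were Python 3.11.15, pandas 2.3.3, numpy 2.4.6, scipy 1.17.1, matplotlib 3.10.9, R 4.3.3, edgeR 4.0.16 (TMM factors) and DESeq2 1.42.0 (size factors).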

Additional observations from a re-analysis of the deposited data

Results flagged for a closer look

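The log2 ratios of some members to the same comparison library had opposite signs in the 2 probe sets. Against LacZ, miR-509-3p had a log2 ratio of 0.70 in EVEN and -4.48 in ODD, a difference of 5.18, and miR-513c-5p had 0.74 and -0.89, a difference of 1.63. Against the input, miR-509-3-5p had -0.83 in EVEN and 5.68 in ODD, a difference of -6.51, miR-510-5p had -4.42 and 3.89, a difference of -8.31, and miR-513c-5p had 0.32 and -1.31, again a difference of 1.63. The EVEN values of miR-509-3-5p and miR-510-5p rest on 2 and 0 reads, and the ratio of miR-510-5p comes from the 0.5 added to each count. With 1 library per probe set these differences were not tested. miR-509-3-5p in EVEN against the input was 0.451 times the input level with an interval that includes 1 (0.0540 to 1.66), and its log2 ratio was 0.60 with 5 added to each count, so its side of the input is not settled. The values of miR-513c-5p depend on the scaling, with ODD against LacZ at 0.56 under median-of-ratios size factors.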

How the results depend on the processing

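No paired analysis was possible because each group has 1 library. The arm shares of miR-509 stayed within their intervals when miR-509-5p was added to the 5p reads. Scaling moved all ratios of a comparison together, the median of all miRNAs in ODD against LacZ going to -0.50 with TMM factors and -0.35 with size factors. Over all alternatives miR-509-3-5p and miR-510-5p in that comparison stayed between 6.62 and 8.92 and between 5.33 and 7.22, and miR-509-3p between -4.48 and -3.04. miR-508-5p turned to 0.088 with TMM and 0.25 with size factors; as for the counts below, a changed scale shifts every ratio alike. In EVEN against LacZ, the members called higher were 1 with TMM (miR-513c-5p), beside 36 of 289 miRNAs. They were 2 with size factors and 2 without the miRNAs among the 10 most abundant of any library (miR-513c-5p and miR-509-3p), beside 43 and 44. Those called lower were 1 with each of these scalings, beside 118, 107 and 106 of 289 miRNAs. With a minimum of 100 reads 1 was lower, beside 80 of 158. With 5 added and at 4-fold 1 was lower, beside 87 and 76 of 289. In EVEN against ODD, 2 were higher with TMM, 2 with size factors and 2 at 4-fold, beside 20, 19 and 22 of 203 miRNAs. At a minimum of 100 reads 1 was higher, beside 39 of 118. With TMM 3 were lower and with size factors 3, miR-508-5p being added, beside 64 and 64 of 203 miRNAs. Against the input, EVEN had 2 higher without those most abundant miRNAs, beside 123 of 464 miRNAs, and 2 at a minimum of 1 read, beside 677 of 1170. ODD had 4 higher with size factors, beside 108 of 468, 4 without those most abundant miRNAs, beside 107, and 4 at a minimum of 1 read, beside 412 of 1194. LacZ against the input had 1 higher with TMM, 1 with size factors and 1 at 4-fold, beside 63, 73 and 45 of 475 miRNAs. It had 1 lower with 5 added and 0 at 4-fold, beside 93 and 55 of 475. At a minimum of 1 read the added calls against the input include miR-513a-5p, with 0 reads in EVEN and ODD and 1 in the input, whose ratio is set by the added 0.5, and in ODD miR-509-5p, with 18 and 17 reads. Of 108 such counts, 85 stayed within 1.5 times the main count. Of 200 member log2 ratios, 129 stayed within the counting interval of the main ratio and 69 moved outside it. The remaining 2, both miR-508-5p in ODD against LacZ, changed sign from a main ratio of at least 2-fold. Sign changes of smaller main ratios are counted among the 129 or the 69. An example is miR-513c-5p in ODD against LacZ, at -0.89 in the main setting and 0.56 with size factors.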
